A study of Equus caballus with 24 samples.

Results

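Of 14930 genes measured above the low-count filter in equine sarcoids and equine skin, 24 (0.161%) were raised in several sarcoids while other sarcoids stayed within the range of skin. The members were chosen by their measured level, in CPM (read counts scaled to a common library size, with TMM, a correction for composition). At least 4 of the 12 sarcoids had to reach 10 CPM and 4 times the highest skin library and at least 3 had to lie at or below that highest skin library. The rule used the levels of every sarcoid and every skin piece, so the differences between sarcoid and skin below describe how the members were chosen and are no test. The bar of 4 raised sarcoids was met by 168 genes, which is 1.13% of the genes tested, and 14.3% of those had 3 or more sarcoids at skin level. Of the others, 98 had no sarcoid at skin level, 37 had 1 and 9 had exactly 2.

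The sarcoid is a fibroblast-rich skin tumour of horses and their relatives, linked to infection with bovine papillomavirus. It occurs in clinical forms that differ in the thickness of the epidermis, in ulceration and in growth. A piece of such a tumour holds fibroblasts, overlying epidermis, vessels and immune cells in proportions that vary from one lesion to another. In RNA from whole pieces, a lower number of cells of a type and less RNA per cell cannot be told apart.

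Both groups were horse tissue, 12 pieces labelled tumour and 12 skin controls, with no treatment, age, sex, body site or clinical form in the labels used here. Libraries are named by group and by the number in the title. The titles of sarcoids 65L, 67L, 71L and 74L end in an L whose meaning is not given, and nothing says that each number is a separate animal. The p-values then cover the spread among these pieces, which may be technical. Gene counts per library ran from 9673480 to 16255132 in the sarcoids and from 9900354 to 31769803 in skin. The files give Ensembl gene IDs without names, and 0 of them occurred in the 39335-gene reference table used. Marker genes of skin cell types, and the tissue labels, could therefore not be checked. The members are numbered here from 1 to 24 by falling CPM in their highest sarcoid, and 2 are given by their ID.

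Skin 9, skin 16 and sarcoid 4 stood apart from their groups, with median Spearman correlations over all genes tested of 0.793, 0.895 and 0.850 to their own group, against 0.930 to 0.965 for the other skin pieces and 0.891 to 0.931 for the other sarcoids. Reads with more than 1 alignment made up 23.9% in sarcoid 4, against 2.26% to 8.81% in the other sarcoids, and its TMM factor of 0.468 was the lowest of all. Without these 3 libraries the rule gave 19 genes, of which 17 were among the 24. Skin 2 supplied the highest skin level for 5 members, skin 9 and skin 11 for 4 each, and skin 16 for 1. No single skin piece therefore set the bar for most members.

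The members' levels spanned a wide range in the tumours and were low in skin. Their highest sarcoid reached between 15.1 CPM (member 24) and 2473 CPM (member 1). The highest skin library lay under 10 CPM for 19 members, and the skin median was under 1 CPM for 9. In sarcoids counted as raised, between 77 and 24473 reads stood behind a member's value, so these levels do not rest on a few reads. All 24 members were called between the tissues, each higher in sarcoid, by the quasi-likelihood test of edgeR with an adjusted p below 0.05. Of all genes tested, 54.2% were called and 27.9% were called higher. The rule used that contrast, and nothing is read from the count. The fitted log2 fold changes of the members ran from 2.05 to 7.34 with a median of 3.60, against 0.02 over all genes tested.

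**Figure D1:**
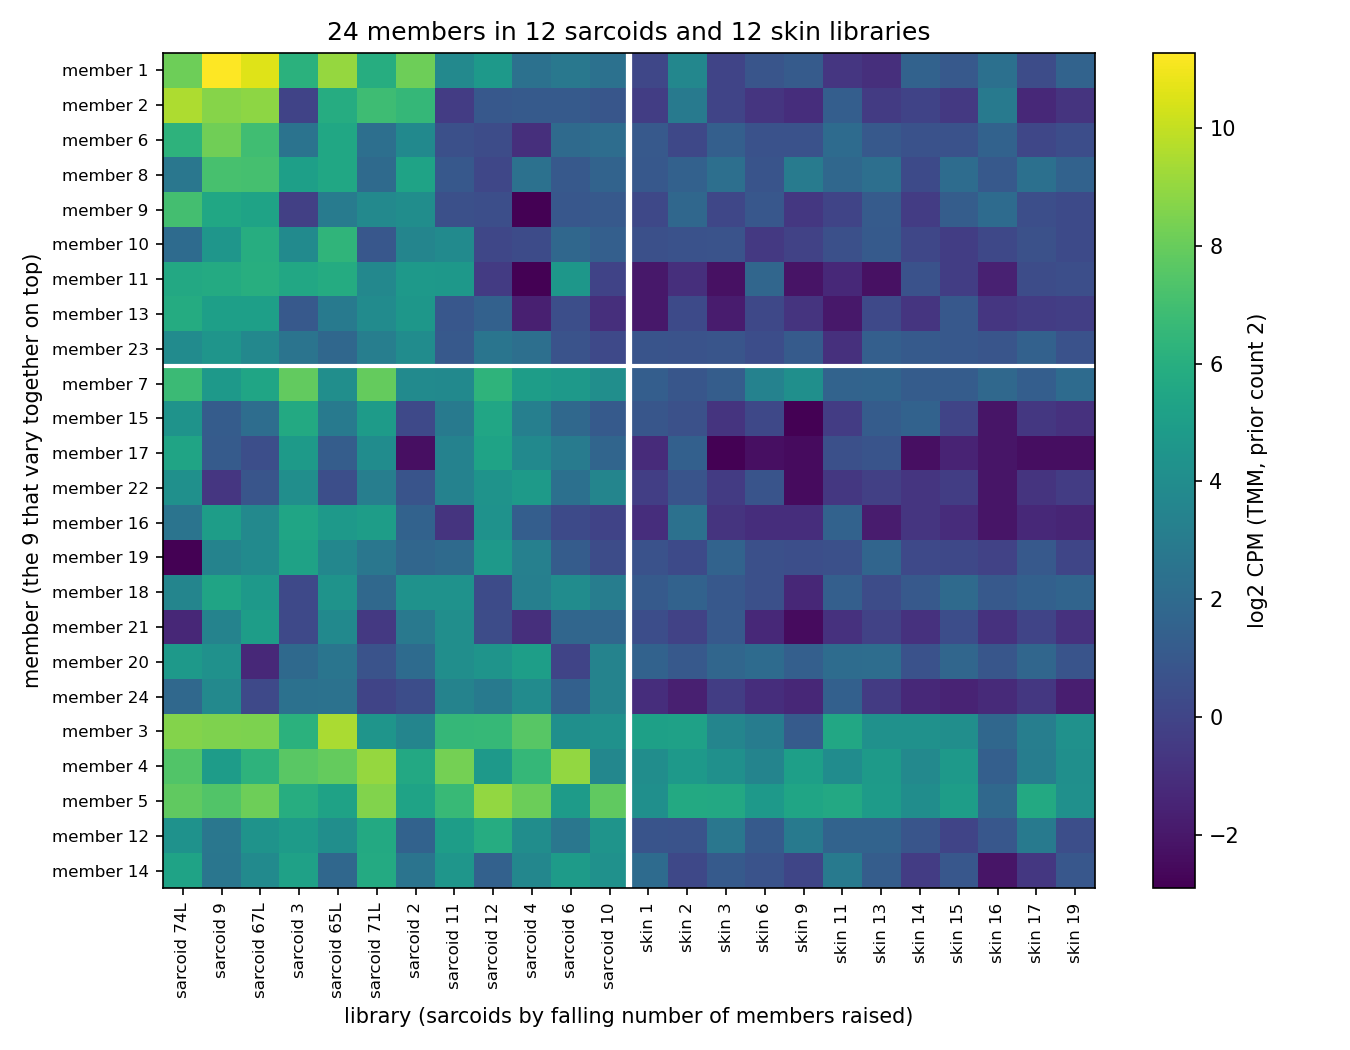
Log2 CPM of the 24 members (rows) in 12 sarcoids and 12 skin libraries (columns), with sarcoids ordered by the number of members raised and colour giving the level. The 9 members above the horizontal line are high mostly in the sarcoids at the left. Members in the lower rows are high in varied sarcoids, some of them also at the left. Of these 15, 9 are raised in 74L, 9 in 3, 8 in 71L and 8 in 12.

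Each tumour carried a part of the list and left out another part. Among the 288 combinations of a member and a sarcoid, 118 (41.0%) were raised, 94 (32.6%) lay at or below the highest skin library and 76 (26.4%) lay between these bars. In 31 combinations the sarcoid was at or below the skin median. The members split the tumours in 21 different ways, so few shared an exact set of raised sarcoids. Of the 24, 13 were raised in 4 sarcoids, 3 in 5, 6 in 6, 1 in 7 and 1 in 8.

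Sarcoid 74L had the most raised members, 16 of 24 (66.7%). It was followed by sarcoid 9 with 15, sarcoid 67L with 14, sarcoid 3 with 13, sarcoid 65L with 12 and sarcoid 71L with 11. Lower numbers were found in sarcoid 2 with 9, sarcoids 11 and 12 with 8 each, sarcoid 4 with 5, sarcoid 6 with 4 and sarcoid 10 with 3. Leaving skin 9 and skin 16 out of the bar changed the count of 1 tumour, sarcoid 67L, to 15. Every sarcoid had at least 3 members raised and at least 3 at skin level. Sarcoids 6 and 10 had 13 members at or below the highest skin level, and sarcoids 67L and 74L had 3. Reads in members took 0.381% of the gene counts of sarcoid 9, 0.0354% of those of sarcoid 4 and at most 0.0225% in any skin library. In sarcoid 9, 24473 reads of 11026490 gene counts came from member 1, so that share rests largely on 1 gene.

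**Figure D2:**
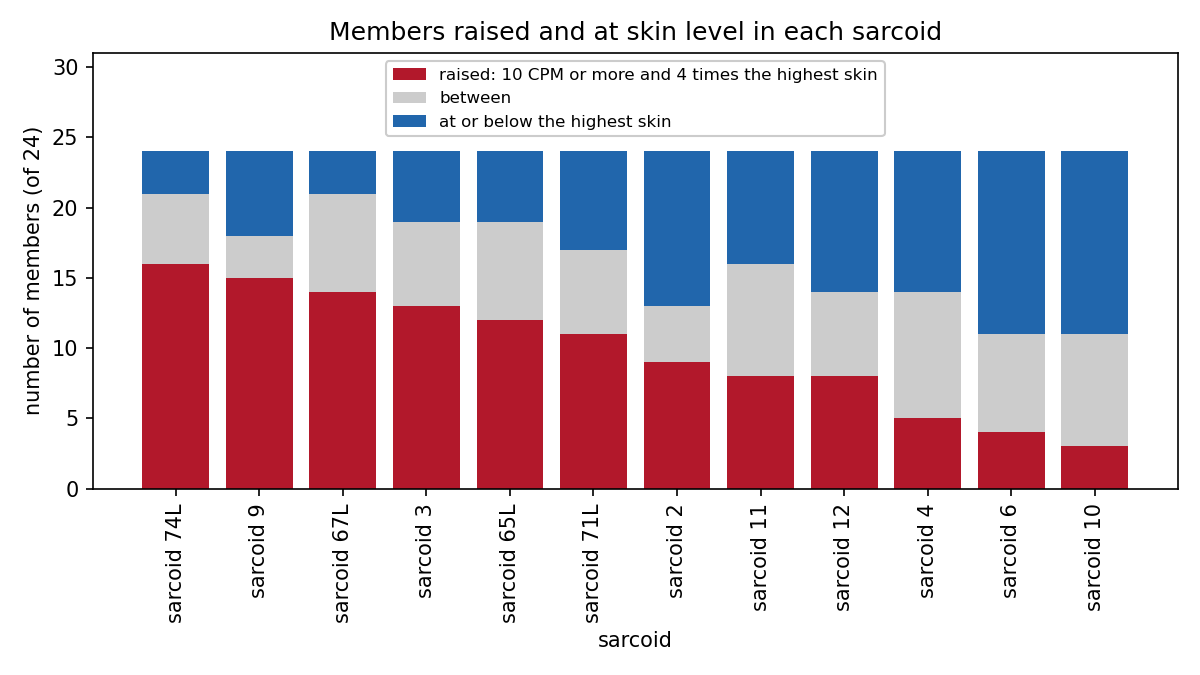
Number of the 24 members that were raised (red), at or below the highest skin library (blue) or between (grey) in each of the 12 sarcoids. The red part falls from 16 in sarcoid 74L to 3 in sarcoid 10.

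Whole-library values differed among the tumours beside these counts. Sarcoids 2, 6 and 10 had the fewest genes past the raised bar among all genes tested, at 45, 46 and 77, and the highest TMM factors of the sarcoids, 1.60, 1.36 and 1.17. The 2 most abundant genes of the series held 8.41%, 9.08% and 12.0% of their gene counts, against 14.7% to 43.3% in the other sarcoids. Sarcoid 4 stood at the other end, with 735 genes past the bar, yet carried 5 of the members. A low count of raised members thus occurred in tumours with few raised genes and in the tumour with the most. The part of these library measures in the members' levels was not tested.

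ENSECAG00000015342 (member 2) had the widest spread among the sarcoids, an SD of 3.88 on the log2 CPM scale, and was named for it. It measured 748 CPM in sarcoid 74L, 466 in 67L, 417 in 9, 115 in 71L, 94.2 in 2 and 58.8 in 65L. The other 6 sarcoids held 0.625 to 2.03 CPM. Skin ran from 0.284 to 7.22 CPM with a median of 0.625. The tumours thus formed a high and a low set, with the largest gap between neighbouring sarcoids 4.77 on the log2 scale. Every tumour of the low set lay inside the skin range. The upper part of that range rests on skin 2, 16 and 11, at 7.22, 7.18 and 2.35 CPM. The next skin piece was at 0.885 CPM, and sarcoids 4, 6, 10 and 12 lay above it, at 1.71 to 2.03 CPM. ENSECAG00000015342 met the rule whichever of the 24 libraries was left out, which member 8 alone also did.

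ENSECAG00000011414 (member 12) was named as the member above 50 CPM least like it over the 12 sarcoids (Spearman's rho -0.41, Pearson's r -0.29). Its highest sarcoids were 12 at 58.6 CPM, 71L at 52.3, 11 at 31.9 and 3 at 29.0, and these 4 counted as raised. Sarcoids 2, 9 and 6 were at 2.79, 6.37 and 6.56 CPM, inside the skin range of 0.879 to 7.23 CPM. The remaining 5 sarcoids lay between 16.2 and 21.8 CPM, so this gene varied more evenly than ENSECAG00000015342, with a largest gap of 1.29. ENSECAG00000011414 sat at the edge of the rule, with its lowest raised sarcoid at 4.01 times the highest skin library, and it left the list when any 1 of 8 sarcoids was left out.

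**Figure D3:**
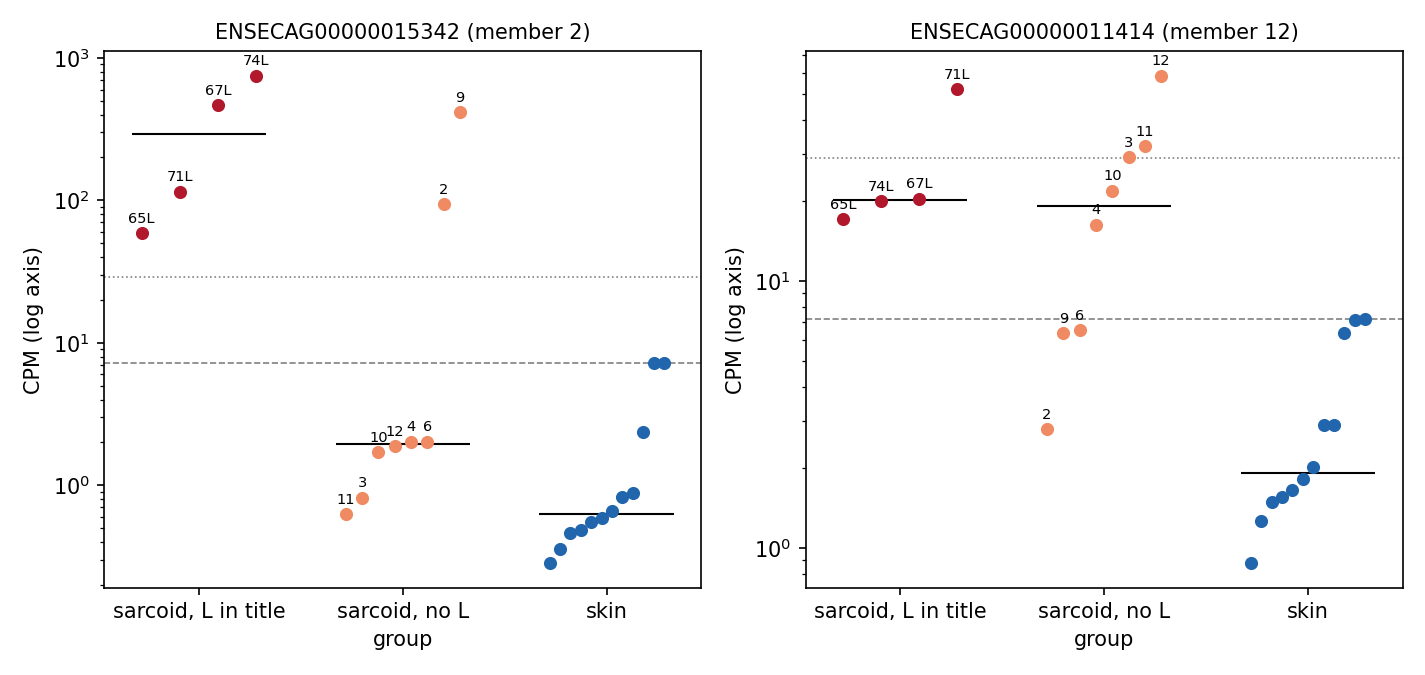
CPM on a log axis of ENSECAG00000015342 and ENSECAG00000011414 in each library, by group, with black lines at group medians, a dashed line at the highest skin library and a dotted line at 4 times that level. ENSECAG00000015342 shows 6 sarcoids from 58.8 to 748 CPM and 6 within skin, whereas ENSECAG00000011414 spreads from 2.79 to 58.6 CPM.

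A set of 9, members 1, 2, 6, 8, 9, 10, 11, 13 and 23, went up and down together from tumour to tumour. Over the 12 sarcoids the 36 pairs among these 9 members had a median Spearman's rho of 0.72, from 0.19 to 0.92, and 29 pairs were at 0.6 or more. Over all 276 pairs of members the median was 0.08, and between members and all genes tested it was -0.01. The set was formed from these correlations, so they describe it and carry no p. Leaving out single sarcoids kept the median between 0.66 (without sarcoid 67L) and 0.77 (without sarcoid 3).

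All 9 of these members were raised in sarcoids 67L and 9. In sarcoid 2, 8 of the 9 were raised and none was at skin level, while 1 of the other 15 members was raised and 11 of those lay at skin level. Sarcoid 74L had 7 of the 9 raised and sarcoid 65L had 6. None of the 9 was raised in sarcoids 4, 10 or 12, where 8, 7 and 6 of them were at skin level. Sarcoid 12 nonetheless had 8 of the other 15 members raised, and sarcoid 4 had 5. The same tumours were therefore high for one set of members and at skin level for another.

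Member 1 had the largest rise in this set. Its sarcoids ran from 5.05 CPM in sarcoid 10 through a median of 65.4 to 2473 CPM in sarcoid 9, against 0.369 to 12.6 CPM in skin. Sarcoid 67L followed sarcoid 9 at 1546 CPM, and sarcoids 4, 6 and 10 were the 3 inside the skin range. The top of that range rests on skin 2, and the next skin piece was at 4.85 CPM. Sarcoids 4, 6 and 10 lay above that next piece, at 5.16, 6.70 and 5.05 CPM. Without skin 2, member 1 left the list.

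Member 6 ran from 0.369 to 297 CPM in the sarcoids with a median of 5.08, and from 0.966 to 4.01 CPM in skin. Sarcoid 9 was again the highest, before 67L at 122 CPM, 74L at 77.2 and 65L at 47.0. Those 4 tumours stood at 11.7 times the highest skin library or above, and the next, sarcoid 2, was at 14.1 CPM. With member 1, member 6 had a rho of 0.88 over the sarcoids.

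Members 9 and 13 followed ENSECAG00000015342 most closely among the members, with rho 0.86 and 0.82 and Pearson's r 0.91 for each. Member 9 peaked at 130 CPM and member 13 at 56.0 CPM, both in sarcoid 74L. Their skin ranges were 0.536 to 4.04 CPM and 0.116 to 1.87 CPM. In sarcoid 4, member 9 had no read, which allows up to 0.553 CPM at that library's scaled size (3 counts, counting error only).

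Members 1, 8, 10 and 11 were raised in sarcoid 3, where ENSECAG00000015342 lay at 0.818 CPM. In sarcoid 3 these 4 members measured 70.6, 33.7, 14.6 and 49.0 CPM. Member 8 was at skin level in 7 tumours, more than any other member, and reached 141 CPM in sarcoid 9. Member 11 was the most widely raised of the 24, in 8 sarcoids at 24.4 to 63.4 CPM, and had no read in sarcoid 4. Members 10 and 11 were the most alike of all pairs, at rho 0.92, and member 23 was the weakest of the set, with 22.2 CPM in its highest sarcoid.

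In skin these 9 members did not move together. The same 36 pairs had a median rho of -0.09 over the 12 skin libraries, from -0.59 to 0.71, and 1 pair was at 0.6 or more. Skin levels were not part of how the set was formed, though the rule held them low. The skin counts behind these correlations were small, with a median of 21 reads per member and library and a range of 1 to 203, against a median of 125 in the sarcoids, and the part of counting noise in the low values was not tested. Members 9 and 13 were the pair with the highest value in skin.

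**Figure D4:**
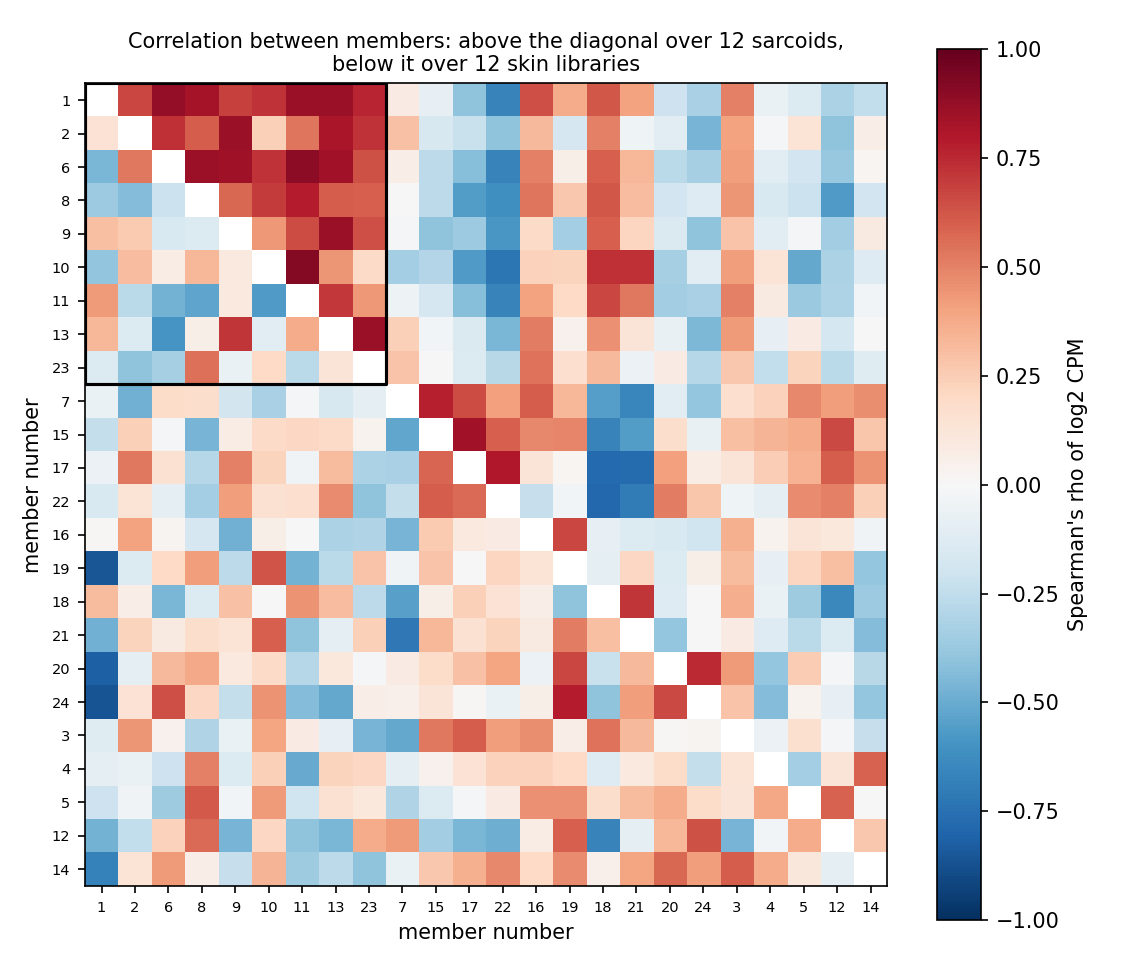
Spearman's rho of log2 CPM between every pair of the 24 members, above the diagonal over the 12 sarcoids and below it over the 12 skin libraries, with the set of 9 members boxed. Inside the box the values above the diagonal are all positive (median 0.72), and those below it are mixed (median -0.09).

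Members 7, 15, 17 and 22 formed a smaller set with a different choice of tumours. All 4 were raised in sarcoids 74L, 3 and 12, and 3 of the 4 in 71L. None of them was raised in sarcoids 65L, 67L, 2, 6 or 9, and all 4 were at skin level in sarcoid 2. Member 7 was the strongest, at 238 CPM in sarcoid 71L and 230 CPM in sarcoid 3, against 1.74 to 17.6 CPM in skin. Member 15 peaked at 51.5 CPM in sarcoid 3, member 17 at 41.2 CPM in sarcoid 74L and member 22 at 28.6 CPM in sarcoid 4. The last peak depends on the low TMM factor of sarcoid 4, with 155 reads there and 281 in 74L. Gene counts of these 2 libraries were 11609528 and 14709857. The 6 pairs among members 7, 15, 17 and 22 had a median rho of 0.71 over the sarcoids and 0.16 over skin.

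Members 18 and 21 were high where that set of 4 was low. Both were raised in sarcoids 65L, 67L, 9 and 11, and both were at skin level in 71L, 3 and 12. Member 18 peaked at 40.7 CPM in sarcoid 9, and member 21 at 31.8 CPM in sarcoid 67L. The 8 pairs of one of these with one of members 7, 15, 17 and 22 had rho from -0.78 to -0.55 over the sarcoids. Over skin the same pairs ran from -0.71 to 0.33 with a median of 0.15, and member 7 with member 21 was at -0.65 over the sarcoids and -0.71 over skin. Of the 12 pairs of members at -0.6 or less, 6 were of this kind and 5 joined member 22 to one of the set of 9.

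Members 20 and 24 were raised together in sarcoids 4 and 9. On the TMM scale sarcoid 4 was their highest tumour, at 33.2 and 15.1 CPM, although it carried few other members. Its TMM factor of 0.468, the lowest of all, raises its CPM. Member 20 had 180 reads there and 394 in 74L, and member 24 had 82 there and 143 in sarcoid 10. Gene counts were 11609528, 14709857 and 11547710 in sarcoids 4, 74L and 10. Neither gene met the rule under library size alone, and both did under RLE factors. Without sarcoid 4 neither gene met the rule, and the same held without sarcoid 9, another of their raised tumours. Member 20 was kept in 20 of the 24 lists that leave out 1 library and member 24 in 16. Member 20 was raised also in 74L and 12, and member 24 in 10 and 11, and member 24 was the one member raised in none of the tumours with an L. This pair had a rho of 0.75 over the sarcoids and 0.66 over skin. Members 16 and 19 were both raised in sarcoids 65L and 3 and had rho 0.67 over the sarcoids. Member 19 had no read in sarcoid 74L, which allows up to 0.196 CPM there.

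Members 3, 4 and 5 were the ones with clear expression in skin, with skin medians of 17.8, 17.2 and 30.2 CPM. Member 3 rose to 719 CPM in sarcoid 65L and to 356 to 396 CPM in 67L, 9 and 74L, while sarcoids 2, 6, 10 and 71L held 11.3 to 22.7 CPM. Member 4 was raised in 65L, 71L, 74L, 3, 6 and 11, with 532 CPM in 71L and 506 CPM in sarcoid 6, a tumour with 4 raised members in all. Member 5 was highest in sarcoid 12, at 506 CPM, and at skin level in 65L, 2 and 6. Skin 16 held 3.44, 2.53 and 3.54 CPM of these 3 genes, and skin 9 held 2.14, 33.7 and 42.3 CPM. Member 14, the remaining one, was raised in 71L, 74L, 3 and 6, from 29.7 to 54.9 CPM.

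Tumours with many raised members in common differed in how far they overlapped. Sarcoids 67L and 9 shared 12 raised members, 85.7% of those of 67L and 80.0% of those of sarcoid 9. All 9 members raised in sarcoid 2 were also raised in sarcoid 9, where they were 60.0% of the raised members, and in 67L, where they were 64.3%. Sarcoids 71L and 74L shared 9, or 81.8% and 56.2% of their raised members. Sarcoid 2 shared no raised member with sarcoids 4, 10 or 12, and sarcoid 4 shared none with sarcoid 6.

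The title divides the sarcoids into 4 with an L and 8 without, a label that the rule did not use. None of the members passed an adjusted p of 0.05 between them in the edgeR fit, and 0% of the 14930 genes did. At an unadjusted p under 0.05 there were 4 members of 24, beside 13.6% of all genes, so the members' share was near that of genes in general. DESeq2 likewise called 0 members, though it called 279 genes in all. With the 12 sarcoids fitted alone in edgeR, 0 members were called and 1 had an unadjusted p under 0.05. The share of all genes at that unadjusted bar was not computed for this fit. The L and the other sarcoids overlapped for every member, while 1.32% of all genes did not overlap.

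In direction, 20 members were higher and 4 lower in the tumours with an L, with a median log2 fold change of 0.67 against -0.06 over all genes tested. Under scaling by library size alone these numbers were 19 and 5. Members that move together over the tumours, such as the set of 9, are not independent counts, and the direction over members was not tested. ENSECAG00000015342 averaged 347 ± 322 CPM in the L tumours (SD, n = 4) and 65.1 ± 146 CPM in the others (SD, n = 8). The difference was 2.42 ± 1.31 on the log2 scale (SE, adjusted p = 0.421 in edgeR, and 0.634 in edgeR with the 12 sarcoids fitted alone). All 4 L tumours were in its high set, at 58.8 CPM or more, with sarcoids 2 and 9. Members 9 and 10 differed by 2.46 ± 0.94 and 2.04 ± 0.73 (SE, adjusted p = 0.268 and 0.237 in edgeR). Member 24 went the other way, at -1.62 ± 0.72 (edgeR adjusted p = 0.333). The members were measured less precisely than most genes here, with a median standard error of 0.82 against 0.32 over all genes tested.

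The call in this comparison turned on sarcoid 9 for 1 member. Without it, member 6 was higher in the L tumours by 3.81 ± 0.67 on the log2 scale (SE, edgeR adjusted p = 0.0351), where 0.192% of 15140 genes were called. That fit includes skin in its estimate of the spread. Over all libraries the SD of member 6 was 0.575 in skin and 2.87 in the sarcoids (log2 CPM). The SE and p may therefore understate the spread among sarcoids, and a fit of the sarcoids alone without sarcoid 9 was not made. With sarcoid 9 the difference was 0.61 ± 1.10, since that tumour, without an L, held the highest level. ENSECAG00000015342 moved to 4.54 when sarcoid 9 was left out and still did not pass. ENSECAG00000011414 differed by 0.34 ± 0.63 (SE, adjusted p = 0.851 in edgeR), which turned to -0.18 without sarcoid 71L.

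**Figure D5:**
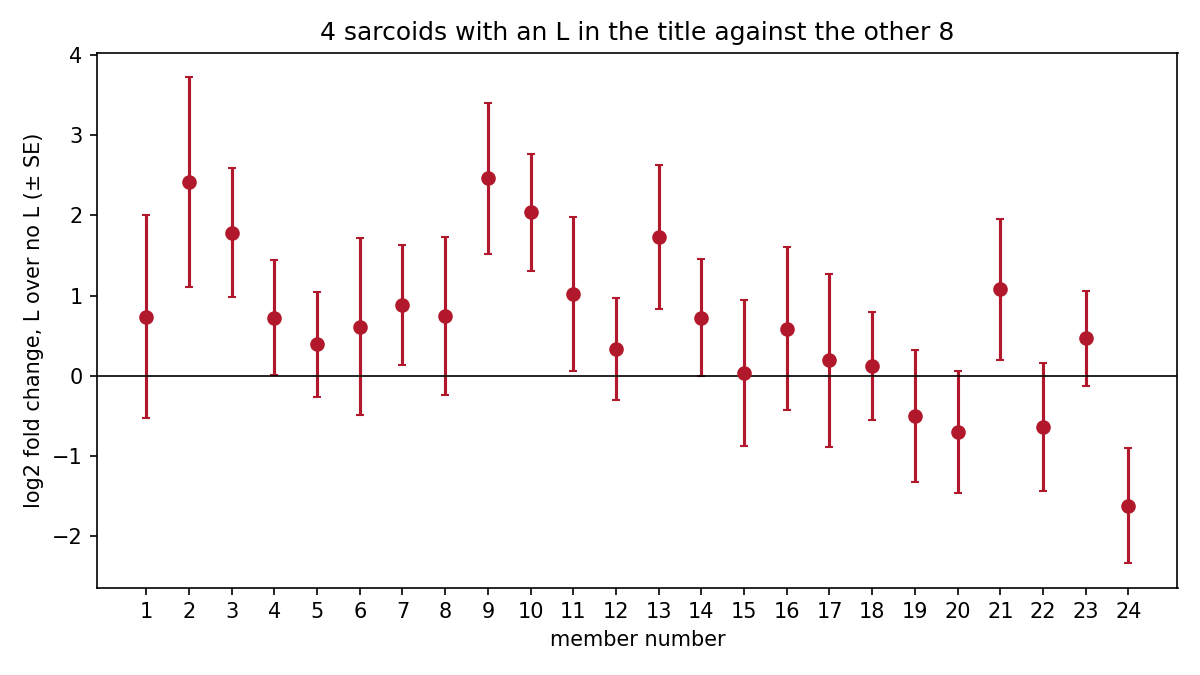
Log2 fold change of the 4 sarcoids with an L in the title over the 8 without, for each of the 24 members by number, with bars of 1 standard error from the fit. Points lie above 0 for 20 members, with the lowest at member 24 (-1.62), and none passed the adjusted threshold.

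The numbers 2, 3, 6, 9 and 11 occur in the title of a sarcoid and of a skin piece, without a statement that they mark 1 animal. Against the skin piece of its own number, sarcoid 9 had 17 members at 10 CPM or more and 4 times or above, sarcoid 3 had 14, sarcoid 11 had 12, sarcoid 2 had 11 and sarcoid 6 had 4. The order of these tumours matched that against the highest skin library, apart from sarcoids 2 and 11, which changed places. No skin piece exceeds the highest one, so every member counted as raised before also passes here. The similar order is thus largely built in and is no support. At or below the same-numbered skin piece lay 6 members in number 2, 4 each in numbers 3 and 11, and 2 each in numbers 6 and 9.

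Genes outside the list also correlated with the members over the tumours, and their own difference from skin varied with the member followed. With 12 sarcoids and 14930 genes some high correlations arise without any link, and an excess over that was not tested. For ENSECAG00000015342, 18 genes had a rho of -0.8 or less over the 12 sarcoids. A rho of 0.8 or more was reached by 50 genes (0.335% of the others tested), of which 2 were members. Among these 50, 17 were called higher in sarcoid than in skin and 8 lower, beside 27.9% and 26.3% of all genes, and 25 were not called. The 3 most alike had rho 0.91, 0.89 and 0.89 and log2 fold changes of sarcoid over skin of -0.53, -0.33 and 0.46. For ENSECAG00000011414, 39 genes (0.261%) were at 0.8 or more, none of them members, and 33 at -0.8 or less. Its 3 most alike had rho 0.90, 0.89 and 0.89. Member 15 had the most genes at 0.8 or more, 177 (1.19%), of which 123 were called higher in sarcoid, and it had 172 at -0.8 or less. Member 4 had the fewest, 14 (0.0938%), with 10 at -0.8 or less.

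Exchanging the tissues in the rule gave a list that depended on which libraries were kept. With skin in the place of sarcoid, 18 genes were raised in at least 4 skin pieces over the highest sarcoid and at sarcoid level in at least 3, out of 142 with 4 raised pieces (12.7%). Without skin 9, skin 16 and sarcoid 4 the exchanged rule gave 3 genes out of 132, and the rule as used here gave 19. That removal, chosen after seeing the data, takes more skin pieces than sarcoids out of the raised and low counts. A larger drop of the exchanged rule is thus partly built in, and no contrast between the tissues is read from it. The members' own median SD on the log2 CPM scale was 2.08 over the sarcoids and 0.96 over skin, against 0.55 and 0.43 over all genes tested.

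The edges of the rule lay within a continuous range of genes. Member 12 was just inside the fold bar at 4.01 times, and the nearest gene outside was at 3.86 times. Member 24 was just inside the level bar at 10.5 CPM in its lowest raised sarcoid, and the nearest gene outside had 8.99 CPM. For member 22, the third-lowest sarcoid was at 0.975 of the highest skin library, and the nearest gene outside was at 1.03. A further 23 genes had exactly 3 raised sarcoids with 3 or more at skin level. Of the 24 members, 2 met the rule whichever library was left out, 14 in 20 to 23 of the 24 such lists and 8 in 16 to 19. The list shrank by over 1.5 times without sarcoid 9 (14 genes), sarcoid 12 (15) or sarcoid 74L (15).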

How the data were processed

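RNA was sequenced in 12 sarcoid and 12 skin libraries. Per the labels' protocols, ribosomal RNA was depleted and all libraries were read as paired ends in a single pool. The authors deposited raw counts of reads for 30371 Ensembl gene IDs. FastQC, TopHat2, HTSeq and DESeq2 are named in the submitters' processing notes, with the EquCab3.0 build. How HTSeq treated strand, and the annotation used, are not given in the sources at hand, so levels of genes with near-identical, overlapping or antisense partners are uncertain. The 5 summary rows per file (reads in no gene, unaligned and the like) stayed out of library sizes.

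In R 4.3.3, edgeR 4.0.16 kept 14930 genes by filterByExpr with the group, scaled libraries by TMM, and compared groups with the quasi-likelihood test over all genes with Benjamini-Hochberg adjustment at 0.05. The L comparison used 1 model of 3 groups over 24 libraries, so that skin added to the estimate of the spread. The members varied less in skin (median SD 0.96 on the log2 CPM scale) than in the sarcoids (2.08). Their standard errors and p-values in this comparison may thus be too small. Standard errors are the log2 fold change over the square root of F. Log2 CPM had a prior count of 2. Sets of members came from average linkage on 1 minus Spearman's rho, with a height of 0.4. On data simulated from these libraries, the sarcoid against skin fit recovered 60 of 100 genes changed by 1 and 86 of 96 changed by 2 on the log2 scale among 14795 genes, and called 2 of 14599 unchanged ones. The L fit recovered 28 of 99 and 64 of 100 among 14797 genes, and called 3 of 14598 unchanged ones. The changed genes were drawn from all genes tested, and all other genes were left unchanged. In the data 54.2% of genes were called between sarcoid and skin, and recovery with so many changed genes was not measured. Recovery of genes with standard errors as large as those of the members (median 0.82 against 0.32) was not measured. The closest of 276 pairs of libraries differed by a chi-square per degree of freedom of 30.2, so none was counted as a repeat.

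With no symbols, the rule for named genes gave 2 IDs, the member above 50 CPM with the largest SD over the sarcoids and the one least correlated with it. Lists of pathway and cell type genes could not be matched and were not used. The members, rule and lists were chosen with earlier results of these data known. Alternatives were RLE factors, library size alone, no filter, other bars, thinning, DESeq2 1.42.0, the sarcoids alone, a block on specimen number and leaving out each library. Leaving out skin 9, skin 16 and sarcoid 4 together, the alternatives for the correlations and the exchanged rule were added after seeing the data. Figures used matplotlib 3.10.9.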

Additional observations from a re-analysis of the deposited data

Results flagged for a closer look

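Among 8 sets of values looked at in the tumours with and without an L, 3 had 1 tumour far from the rest. The bar used gives about 1 such set in 20 by chance for normally distributed values that were not chosen. Whether these values were so distributed was not tested. The members were also chosen for being high in some tumours, and ENSECAG00000015342 for its spread. No excess over chance is therefore read from these sets. ENSECAG00000011414 was at 52.3 CPM in sarcoid 71L, with the next of the 4 tumours with an L at 20.3 CPM. ENSECAG00000015342 was at 417 CPM in sarcoid 9, with the next of the 8 tumours without an L at 94.2 CPM. Members took 0.381% of the gene counts of sarcoid 9, largely through the 24473 reads of member 1, with the next tumour without an L at 0.110%.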

How the results depend on the processing

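The number of members was 41 at 3 times the highest skin library, 11 at 6 times and 14 at a minimum of 20 CPM. It was 14 to 27 when single libraries were left out. The rule's own bars explain these shifts in part, since a left-out sarcoid can no longer count towards 4 raised or 3 low tumours. Other settings gave 19 to 27 genes, with 21 of the 24 shared under RLE factors, 14 under library size alone, 21 with no filter, 18 after thinning and 17 without skin 9, skin 16 and sarcoid 4. Library size alone shifted the median change over all genes tested from 0.017 to -0.21 (log2). Members called between L and other sarcoids stayed at 0 in each setting except without sarcoid 9 (1 member), giving 0 to 1 over single libraries left out. ENSECAG00000015342 ran from 1.71 to 4.54 there and ENSECAG00000011414 from -0.184 to 0.742, with the reversal to -0.184 without sarcoid 71L, and the cause was not tested. Genes called between sarcoid and skin numbered 7797 to 8304 with single libraries left out. Under TMM 8091 were called, 4165 of them higher in sarcoid. RLE factors gave 8073 with 3911 higher, and DESeq2 gave 8348 with 3987 higher. Library size alone gave 5761 with 2116 higher, so the shares of all genes called depend on the scaling. With the specimen number as replicate block over the 10 libraries that share a number, 1996 genes were called, and 2504 in the same 10 libraries without it. Fewer libraries entered both fits. Deviations from the group means correlated between -0.03 and 0.49 within a number, and 1 of 5 sarcoids, sarcoid 9, matched its own number best. Such values over 5 numbers cannot tell whether a number marks 1 animal. The labels do not say so either, and the numbers were not taken as pairs. With 3 members lacking any read in 1 sarcoid, depth limits how low those levels can be placed.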
